A study of Homo sapiens with 40 samples.

Results

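CASP8AP2 was knocked down in U2OS cells, a human osteosarcoma line, and transcripts were profiled 2 days later on 3 arrays of cells given CASP8AP2 siRNA and 3 arrays of cells given control siRNA. These 6 arrays of 40 in the series were chosen by their labels (cell line U2OS, day 2, siRNA CASP8AP2 or control), and all 22069 Ensembl genes on them were tested. The study asked how tumor and normal cells respond to loss of regulators of histone genes. Both groups were reverse transfected at 15 nM with HiPerFect in medium with serum. The methods describe the CASP8AP2 siRNA as a set of 4 FlexiTube siRNAs and the control as AllStars Negative Control, both from Qiagen. The 3 replicates of each group are labelled as biological. The methods, which describe simultaneous transfections in duplicate, do not say whether these 3 were transfected on separate days. The spread between separate experiments was therefore not tested. The 4 siRNAs were not tested apart, so the part of any unintended target in a change was not tested. In the same way, hTERT-RPE1 cells (a normal retinal pigment epithelial line kept dividing by telomerase) gave 3 arrays per siRNA on day 2, and U2OS cells gave 3 per siRNA on day 1 and 2 per siRNA on day 3.

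CASP8AP2, also called FLASH, is a large nuclear protein of the histone locus body, where the replication-dependent histone genes are transcribed and their transcripts are cut at the end. These histone genes are used in S phase, when new DNA has to be packed into nucleosomes, and their transcripts are cleaved rather than polyadenylated. NPAT is a co-activator at the same genes, while HINFP binds the promoters of histone H4 genes.

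The 6 arrays were alike in scale. Their means lay between 6.03 and 6.05 and their medians between 5.61 and 5.67 on the log2 scale, and replicate arrays correlated with r of 0.997 to 0.998. In a principal component analysis the first component carried 66.9% of the variance and separated the 3 CASP8AP2 siRNA arrays from the 3 control arrays. The second carried 10.3% and set CASP8AP2 siRNA replicate 2 apart from the other 2 of its group. The arrays were scaled to each other, so each difference is relative to the other genes. In RNA of a whole culture, fewer cells that express a gene and less of its RNA per cell cannot be told apart. Values are RMA values (log2 intensity of the probes of 1 gene), differences are CASP8AP2 siRNA minus control on that log2 scale, each error of a difference is the standard error of the fit, and a gene was called at a Benjamini-Hochberg adjusted p under 0.05 in limma. Symbols were known for 1924 genes (8.72%), those of a part of the study's siRNA library, so the canonical histone genes themselves could not be named here.

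The targeted transcript fell to 30.1% of control. CASP8AP2 read 6.97, 6.99 and 7.02 on the control arrays and 5.23, 5.20 and 5.34 on the CASP8AP2 siRNA arrays, and the groups lay far apart. The difference was -1.73 ± 0.09 (SE, n = 3 and 3, limma adjusted p = 2.01e-11), and an exact two-sided permutation test over the 6 arrays gave p = 0.1, the smallest that 3 against 3 allows. NPAT read 8.93, 8.86 and 8.83 on control arrays and 8.77, 8.77 and 8.79 on siRNA arrays, and its difference of -0.10 ± 0.06 did not pass the test (limma adjusted p = 0.286). HINFP was higher by 0.19 ± 0.06 (limma adjusted p = 0.0262), with 7.41, 7.60 and 7.50 on control and 7.66, 7.66 and 7.77 on siRNA arrays, and this call was lost without control replicate 1 (0.15, limma adjusted p = 0.145), control replicate 3 (0.19, 0.0673) or CASP8AP2 siRNA replicate 3 (0.16, 0.126), and in 3 of the other alternatives. H1F0, a linker histone made outside S phase as well, was among the brightest genes at 11.98 to 12.11 on all control arrays and 11.97 to 12.01 on siRNA arrays, with a difference of -0.08 ± 0.10 (limma adjusted p = 0.656). H2AFX, the histone variant marked at DNA breaks, differed by -0.17 ± 0.08 (limma adjusted p = 0.135).

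Of the 22069 genes, 5492 were called (24.9%), 2600 higher (11.8%) and 2892 lower (13.1%). Under cyclic loess scaling the split turned to 3238 higher and 2102 lower, so the balance of rises and falls depended on the scaling used. Over all levels, 243 genes (1.1%) were called higher and 70 (0.317%) called lower with a log2 difference of at least 1. The balance of these large changes differed by level. Among 9501 genes with a control mean below 5, 83 were rises and 3 falls, while among 3416 genes at 9 or more, 5 were rises and 25 falls. Counting calls of any size, 29.4% were called lower and 11.6% higher at a control mean of 9 or more. Below 5, 1.86% were called lower and 5.92% higher. Genes were grouped here by the control mean, which also enters each difference. Those below 5 lie near the lower end of the range (lowest value on the 6 arrays 1.84), which leaves little room for a fall of 1. The part of this in the balance was not tested. Only 1 of the 20 largest rises and 1 of the 20 largest falls had a symbol. The largest of all was ENSG00000252421, which read 3.59, 3.47 and 3.85 on control arrays and 9.46, 9.50 and 9.34 on siRNA arrays, followed by ENSG00000139679 at 3.98, 3.78 and 3.75 against 8.87, 8.80 and 8.72. At the other end, ENSG00000184348 went from 9.30, 9.37 and 9.65 to 6.93, 6.91 and 6.85, and ENSG00000196176 from 9.02, 8.91 and 8.87 to 6.45, 6.65 and 7.00. These 4 have no paired symbol. Among the 1924 genes with a symbol, 651 were called (33.8%), 335 higher (17.4%) and 316 lower (16.4%), and these shares are the background for the lists described here. The background was not matched for level, and the part of level in the share of a list was not tested.

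**Figure D1:**
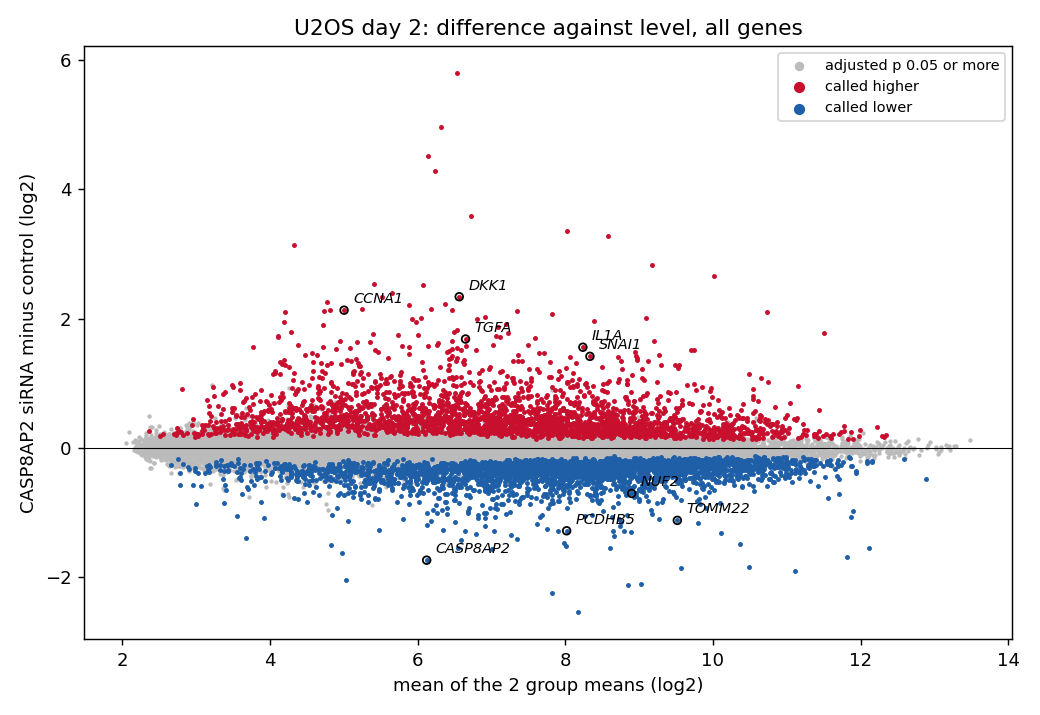
Each point is 1 of 22069 genes, with the mean of the control and siRNA group means on the horizontal axis and CASP8AP2 siRNA minus control on the vertical axis, both in log2 units; red and blue mark genes called higher and lower, and circles mark named genes. The rises reach 5.80 and the falls -2.54, and blue points are more frequent than red at the bright end.

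The promoters of 4 genes are shown because they are named among the clear changes described further on and carry the letters of a general or cell cycle promoter element close to the start. DKK1 and PTGS2 were higher, KIF11 and RFC4 lower. Each stretch holds the 150 bases before the RefSeq start, 5′ to 3′ on the strand of the gene (GRCh38.p14). Capitals mark TATAAA in DKK1 and PTGS2, ATTGG (the complement of CCAAT) in KIF11, and TTCCCGC (the complement of the E2F-type letters GCGGGAA) in RFC4.
DKK1, chr10:52314131-52314280, plus strand: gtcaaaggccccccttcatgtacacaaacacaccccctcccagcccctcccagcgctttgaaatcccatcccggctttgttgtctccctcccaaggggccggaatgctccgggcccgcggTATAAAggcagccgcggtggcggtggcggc
PTGS2, chr1:186680424-186680573, minus strand: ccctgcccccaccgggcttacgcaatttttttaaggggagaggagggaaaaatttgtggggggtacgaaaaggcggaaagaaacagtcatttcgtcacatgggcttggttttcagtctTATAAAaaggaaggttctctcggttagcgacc
KIF11, chr10:92592980-92593129, plus strand: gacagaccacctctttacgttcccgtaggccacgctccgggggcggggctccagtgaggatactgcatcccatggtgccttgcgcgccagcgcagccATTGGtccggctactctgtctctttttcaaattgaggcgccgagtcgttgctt
RFC4, chr3:186806483-186806632, minus strand: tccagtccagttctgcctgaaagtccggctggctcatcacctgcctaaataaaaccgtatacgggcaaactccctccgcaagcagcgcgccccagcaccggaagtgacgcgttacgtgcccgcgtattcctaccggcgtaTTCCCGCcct
The letters begin 30 bases before the start in DKK1, 32 in PTGS2, 53 in KIF11 and 10 in RFC4. Searched on both strands over the 250 bases before and 50 after the start of 27305 RefSeq promoters, TATAAA was found in 12.0%, CCAAT in 35.7% and GCGGGAA in 6.56%. These matches describe the sequence and were not tested as sites. Only 77.6% of the genes called higher had a promoter in the table, so shares of motifs among called genes were taken as void and are not given.

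DKK1, CCNA1 and ANGPT2 led the named rises. DKK1, a secreted antagonist of Wnt signalling, read 5.30, 5.34 and 5.55 on control arrays and 7.68, 7.72 and 7.81 on siRNA arrays, and rose by 2.34 ± 0.11 (5.06-fold, limma adjusted p = 3.78e-12). CCNA1, the cyclin A best known from the male germ line, read 3.83, 4.11 and 3.88 against 6.37, 5.76 and 6.08, a rise of 2.13 ± 0.14 from a control level in the lower part of the range. ANGPT2, a ligand of the endothelial Tie receptor, read 3.57, 3.55 and 3.91 against 6.04, 5.75 and 5.59 and rose by 2.12 ± 0.10. In each of these 3 genes the lowest siRNA array was more than 1 log2 unit above the highest control array. IL13RA2, a decoy receptor for an interleukin, rose by 1.79 ± 0.12, with 5.61, 5.41 and 5.78 against 7.42, 7.40 and 7.34. TGFA, a ligand of the EGF receptor, rose by 1.69 ± 0.11, with 5.93, 5.68 and 5.81 against 7.55, 7.23 and 7.70. ZNF280A, a zinc finger gene, rose by 1.60 ± 0.12, and its control arrays were spread from 5.19 to 5.84 while its siRNA arrays lay at 7.02 to 7.09. IL1A, an inflammatory cytokine, rose by 1.56 ± 0.15, with 7.25, 7.33 and 7.80 against 8.85, 9.21 and 8.99. None of these 7 had overlapping groups, and the same held for 3910 genes in all whose siRNA arrays lay above the controls (17.7%).

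The next rises were of KCNJ15, an inwardly rectifying potassium channel (1.54 ± 0.13), PGF, a factor of the VEGF family (1.52 ± 0.12), and SNAI1, a repressor of E-cadherin transcription (1.42 ± 0.09). SNAI1 was the tightest of them, with 7.53, 7.64 and 7.70 on control arrays and 8.97, 9.08 and 9.08 on siRNA arrays. DLL4, a Notch ligand, rose by 1.28 ± 0.12 from 3.42, 3.64 and 3.65, with siRNA replicate 3 at 4.50 below the other 2 at 4.97 and 5.07. PRSS8, a membrane-bound serine protease, rose by 1.27 ± 0.13. The adjusted p of the 12 genes lay between 3.78e-12 for DKK1 and 1.38e-07 for PRSS8 (limma).

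**Figure D2:**
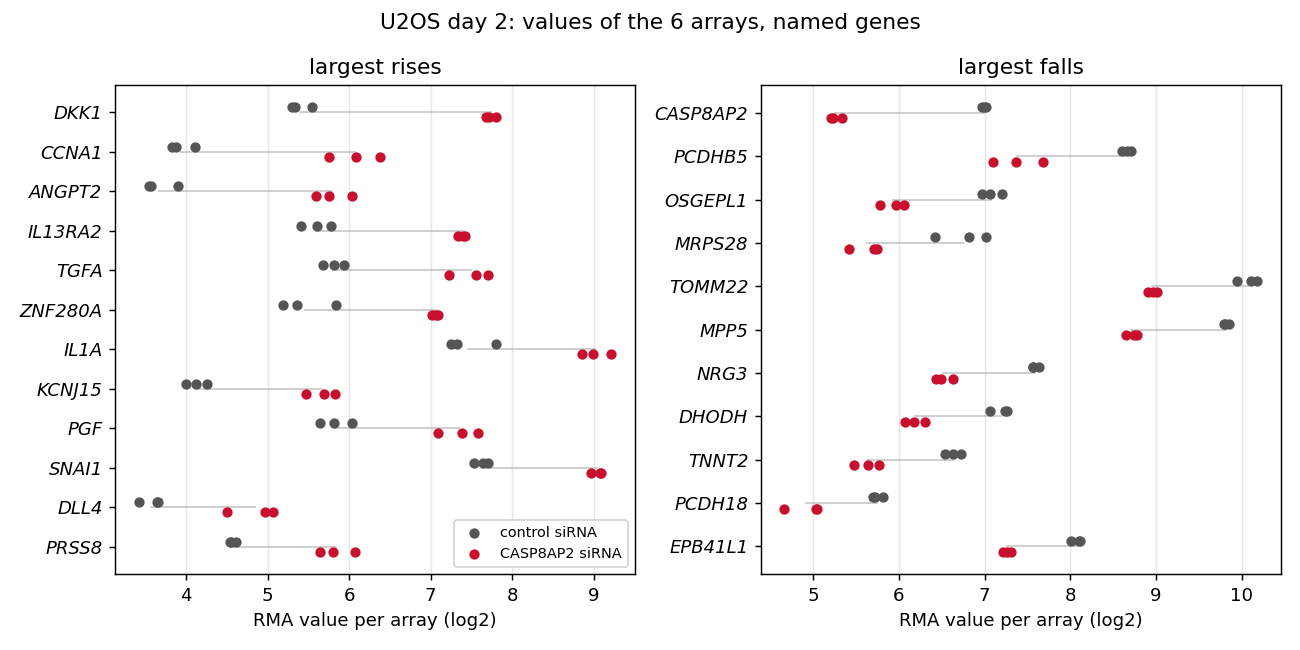
RMA values (log2, horizontal axis) of the 3 control arrays (grey) and the 3 CASP8AP2 siRNA arrays (red) for the 12 largest named rises and 11 of the 12 largest named falls, with a line between the group means. Every red point lies beyond every grey point of its gene, which the choice of these genes required; the widest spread within a group is that of the ZNF280A controls (5.19 to 5.84).

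After CASP8AP2, PCDHB5 led the named falls given here. PCDHB5, a clustered protocadherin, read 8.71, 8.60 and 8.66 on control arrays and 7.68, 7.09 and 7.37 on siRNA arrays, and fell by 1.28 on the log2 scale (SE 0.12, limma adjusted p = 9.95e-08). NRG3, a ligand of an ErbB receptor, read 7.63, 7.56 and 7.56 against 6.63, 6.48 and 6.43, a difference of -1.07 ± 0.09. MPP5, a scaffold of the apical polarity complex, fell from 9.81, 9.80 and 9.85 to 8.77, 8.65 and 8.74 (-1.10 ± 0.06, limma adjusted p = 1.52e-11). With its small spread, MPP5 had the lowest adjusted p of the named falls, CASP8AP2 included. OSGEPL1, a mitochondrial tRNA-modifying enzyme, differed by -1.14 ± 0.08, with 7.20, 7.06 and 6.97 against 5.96, 6.06 and 5.78. TOMM22, a receptor of the outer mitochondrial membrane translocase, differed by -1.12 ± 0.08 at a high level (9.94, 10.18 and 10.11 against 9.01, 8.96 and 8.90). MRPS28, of the small mitochondrial ribosomal subunit, differed by -1.12 ± 0.16 with control replicate 1 (6.42) below the other controls (7.02 and 6.81). DHODH, an enzyme of pyrimidine synthesis on the inner mitochondrial membrane, differed by -1.01 ± 0.07. The remaining 3 were TNNT2, a cardiac troponin that fell by 1.00 on the log2 scale (SE 0.12), PCDH18, a protocadherin (-0.84 ± 0.10), and EPB41L1, a linker of membrane and cytoskeleton (-0.82 ± 0.07). Over all genes, 4615 had every siRNA array below every control array (20.9%).

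Mitotic genes were lower as a group. Of 11 measured members of the mitosis list, 10 were called lower, with a median difference of -0.34, against 16.4% called lower and a median of -0.01 over genes with a symbol. NUF2, a kinetochore protein that holds microtubules, read 9.27, 9.22 and 9.26 on control and 8.52, 8.55 and 8.57 on siRNA arrays, a difference of -0.70 ± 0.05 (limma adjusted p = 1.51e-09). ECT2, an exchange factor for cytokinesis, read 9.09, 9.05 and 9.10 against 8.59, 8.49 and 8.57 (-0.53 ± 0.06). KIF11, the kinesin that separates spindle poles, read 9.34, 9.32 and 9.34 against 8.79, 8.83 and 8.85 (-0.51 ± 0.05). CKAP2, a spindle protein, differed by -0.50 ± 0.05. The changes were modest in size, but in each of these 4 genes the groups lay further apart than the arrays within a group. KIF14 was the member not called (-0.15), and 10 or 11 members were lower under each of the 14 alternatives, scalings included. Of 17 kinesins, which move along microtubules in mitosis or transport, 6 were called lower and 1 higher, with the mitotic KIF18B (-0.37), KIF15 (-0.36) and KIF2C (-0.31) after KIF11.

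In the list of cyclins, CDKs and E2F factors, from which no CDK had a symbol here, 5 of 10 measured were called lower and 1 higher. E2F2, an activator of S phase genes, read 6.67, 6.58 and 6.49 on control arrays and 5.95, 5.69 and 6.00 on siRNA arrays (-0.70 ± 0.10, limma adjusted p = 1.2e-05). E2F1, its relative, differed by -0.32 ± 0.07. CCNE2, a cyclin of S phase entry, read 8.52, 8.51 and 8.49 against 7.96, 7.82 and 7.94 (-0.60 ± 0.06), and CCNE1 differed by -0.23 (-0.16 and not called under cyclic loess). CCNA2, the somatic cyclin A of S phase and G2, read 10.52, 10.54 and 10.51 against 10.01, 9.94 and 10.09 (-0.51 ± 0.07). The 2 A-type cyclins therefore moved in opposite directions, CCNA1 up from a low level and CCNA2 down from a high one. The other 4 were not called.

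DNA synthesis genes were mostly lower too, with 9 of 14 called lower, 1 higher and a median of -0.24. DNA2, a nuclease and helicase of replication forks, read 8.14, 8.21 and 8.09 on control arrays and 7.59, 7.44 and 7.50 on siRNA arrays (-0.63 ± 0.07, limma adjusted p = 4.08e-07). CLSPN, an adaptor of the replication checkpoint, differed by -0.42 ± 0.09, WDHD1, which ties polymerase alpha to the fork, by -0.42 ± 0.07, and RFC4, of the clamp loader, by -0.38 ± 0.06. The single-strand binding complex did not move as one: RPA1 was called lower (-0.35), RPA3 higher (0.24 ± 0.06), and RPA2 was not called (0.11). Of 7 licensing genes, 2 were called lower (1 to 4 under the alternatives, 3 with arrays centred on their medians). ORC1L, the large subunit of the origin recognition complex, read 8.42, 8.58 and 8.68 against 8.07, 8.06 and 8.04 (-0.51 ± 0.08), and MCM3, of the replicative helicase, read 10.35, 10.43 and 10.40 against 10.21, 10.07 and 10.24 (-0.22 ± 0.07, limma adjusted p = 0.0147). The call of MCM3 was lost without control replicate 2 (-0.20, limma adjusted p = 0.0576) or CASP8AP2 siRNA replicate 2 (-0.17, 0.0961) and under cyclic loess and quantile scaling. CDC45L (-0.11) and CDT1 (-0.09) were not called.

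All 4 measured histone chaperones were lower, by much the same amount. ANP32E, a chaperone of a histone H2A variant, differed by -0.38 ± 0.07, RBBP4 by -0.36 ± 0.08, RBBP7 by -0.33 ± 0.05, and CHAF1B, a subunit of the factor that places histones on new DNA, by -0.33 ± 0.05. RBBP7, which with RBBP4 binds histones in several chromatin complexes, read 11.20, 11.25 and 11.23 against 10.93, 10.86 and 10.89, so the groups were separate at a high level, and all 4 genes were called lower under each of the 14 alternatives. The other 17 genes of this list had no symbol here.

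**Figure D3:**
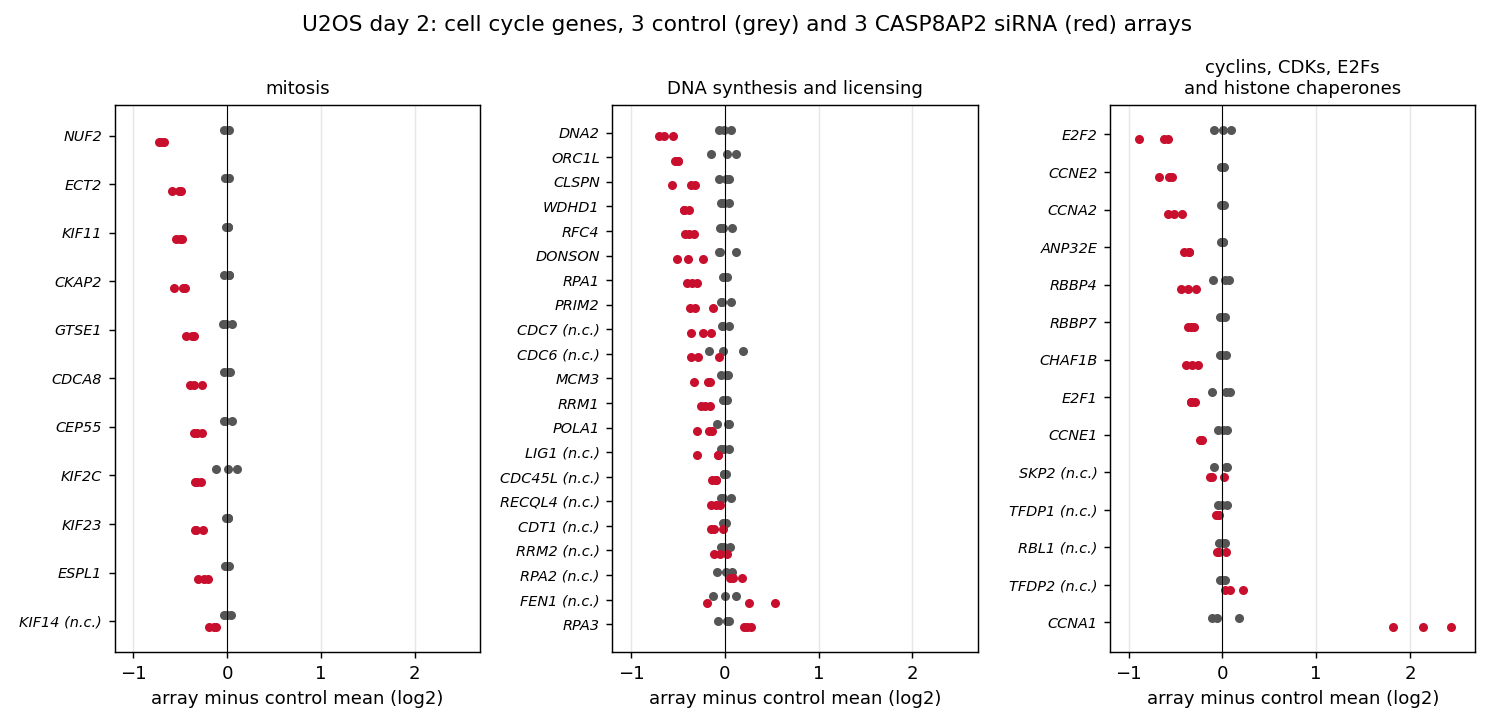
Each row is a gene of the mitosis list (left), the DNA synthesis and licensing lists (middle) or the cyclin and histone chaperone lists (right), and points give each array minus the mean of the 3 control arrays on the log2 scale, grey for control and red for CASP8AP2 siRNA; n.c. marks genes not called. Red points lie to the left of grey ones for most genes, between about 0 and -0.9, while CCNA1 stands alone near 2.13 on the right.

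Repair genes that were called were mostly lower too, but many were not called. Of 19 genes of the damage checkpoint and homologous recombination, 9 were called lower, 1 higher and 9 were not called, with a median of -0.18. RAD54B, a recombination motor, read 7.12, 7.22 and 7.13 on control and 6.48, 6.33 and 6.69 on siRNA arrays (-0.66 ± 0.12, limma adjusted p = 0.000311), followed by NBN, of the complex that senses breaks (-0.36 ± 0.06), FANCE, a Fanconi anaemia gene (-0.31 ± 0.07), and RAD17, a checkpoint clamp loader (-0.30 ± 0.08). BRCA2, a recombination mediator (0.08), and EXO1, an exonuclease (0.06), were not called. WEE1, the kinase that holds back mitotic entry, was the gene called higher (0.22 ± 0.07, limma adjusted p = 0.0244), but its call was lost without any 1 of the 3 CASP8AP2 siRNA arrays or of control replicates 1 and 3 (0.18 to 0.22, limma adjusted p = 0.051 to 0.107). Of 17 genes of excision, mismatch and other repair, 6 were called lower, 1 higher and 10 were not called. Their median was -0.08, and the called share was 41.2% against a background of 33.8%. NEIL3, a glycosylase of S phase cells, read 7.91, 7.88 and 7.93 against 7.25, 7.01 and 7.20 (-0.76 ± 0.07), and UNG, which removes uracil from DNA, read 8.83 on all 3 control arrays and 8.20, 8.06 and 8.14 on siRNA arrays (-0.70 ± 0.08). MLH3 (-0.59 ± 0.05), a mismatch repair factor, and LIG3 (-0.50 ± 0.06), a DNA ligase, were lower, and POLL, a gap-filling polymerase, was higher (0.30 ± 0.07).

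Genes of cell death that were called moved both ways, and 9 of 15 genes in the apoptosis list were not called. In the apoptosis list, 4 of 15 measured were called higher and 2 lower, a called share of 40.0% against a background of 33.8%. In the list of p53 targets, which shares 4 genes with it, 3 of 8 measured were called higher and 2 lower (62.5%). Only these 8 of 39 listed p53 targets had a symbol here, so they do not stand for the p53 response as a whole. The medians were 0.07 for apoptosis and 0.01 for p53 targets. Under cyclic loess the apoptosis list gave 7 higher and 1 lower (4 to 9 calls over the 14 alternatives), and the p53 list 3 higher and 1 lower (3 to 5 calls). BCL2L11 (BIM), a pro-apoptotic BH protein, read 6.83, 6.89 and 6.72 on control and 7.40, 7.33 and 7.38 on siRNA arrays (0.56 ± 0.09, limma adjusted p = 5.18e-05). APAF1, the core of the apoptosome, read 5.95, 6.06 and 6.04 against 6.53, 6.53 and 6.46 (0.49 ± 0.06), and PMAIP1 (NOXA) rose by 0.36 ± 0.07. HRK (0.33 ± 0.11) was called higher although its siRNA replicate 2 (8.81) lay within the control range of 8.62 to 8.82, and its call was lost without control replicate 1 (0.26, limma adjusted p = 0.128), siRNA replicate 1 (0.25, 0.142) or siRNA replicate 3 (0.27, 0.117). BIRC3, an inhibitor of apoptosis, was lower (-0.38 ± 0.09), as was FBXO22 (-0.32 ± 0.07). The p53 targets BAX, a pore-forming effector (-0.19 ± 0.07, limma adjusted p = 0.0442), and PERP, a desmosomal protein (0.18 ± 0.06, 0.0373), were close to the threshold. The call of BAX was lost without any 1 of the 6 arrays (limma adjusted p = 0.079 to 0.119), and that of PERP without any 1 of the 3 control arrays or of siRNA replicates 1 and 2 (0.0579 to 0.142). CASP8 (0.05) and MCL1 (-0.12) were not called.

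Inflammatory and growth factor genes also split by member. Of 15 genes of NF-kB signalling and cytokines, 5 were called higher and 3 lower. PTGS2, the inducible prostaglandin synthase, read 6.56, 6.38 and 6.61 on control and 7.53, 7.60 and 7.50 on siRNA arrays (1.03 ± 0.10, limma adjusted p = 1.63e-07). TNFAIP2 rose by 0.81 ± 0.07 and TNFAIP3, a brake on NF-kB, by 0.46 ± 0.06, while the chemokine IL8 rose by 0.44 (0.36 and limma adjusted p = 0.0592 without control replicate 1). CSF1, the macrophage growth factor, fell by 0.78 on the log2 scale (SE 0.07), from 7.40, 7.35 and 7.45 to 6.71, 6.49 and 6.64, and IL18 differed by -0.35 ± 0.12 (limma adjusted p = 0.0304), a call lost without any 1 of the 3 siRNA arrays or of control replicates 1 and 3 (0.0589 to 0.0956). NFKB1 (-0.10), a subunit of NF-kB, was not called. Both measured interferon genes, STAT2 (0.41 ± 0.06) and TRIM22 (0.43 ± 0.07), were higher.

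Ligands of the EGF receptor family moved in opposite directions. TGFA and HBEGF were called higher, and NRG3 and EGF (-0.55 ± 0.14, from a low level of 4.70 to 4.82) lower, of 6 measured. HBEGF, a membrane-bound ligand shed at the surface, read 9.58, 9.60 and 9.58 against 10.43, 10.38 and 10.31 (0.78 ± 0.05, limma adjusted p = 4.37e-10). It is also 1 of 3 of 5 immediate early genes that were called higher, with KLF10 (0.76 ± 0.06) and EGR2 (0.64 ± 0.08), both zinc finger factors, whereas FOSL1 (0.04) was not called. In the IGF system, the receptor IGF1R rose by 0.69 ± 0.05, from 9.46, 9.35 and 9.32 to 10.10, 10.07 and 10.02, IGFBP3, a binding protein of IGF, was lower (-0.39 ± 0.13), and the other 6 were not called (under cyclic loess 2 were higher and the fall of IGFBP3 was not called). Without control replicate 2 (-0.39, limma adjusted p = 0.0711), control replicate 3 (-0.22, 0.231) or siRNA replicate 3 (-0.33, 0.122) the call of IGFBP3 was lost.

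Notch, Wnt and TGF-beta genes that were called were mainly ligands, inhibitors and targets. In the Notch list 3 of 7 were higher, the ligands DLL4 and JAG1 (0.80 ± 0.07) and the target HEY1, which read 5.83, 5.53 and 5.63 against 6.63, 6.74 and 6.40 (0.93 ± 0.11). HES5, another target, was lower at a low level (-0.25 ± 0.09, limma adjusted p = 0.0417), and this call was lost without any 1 of the 3 siRNA arrays or of control replicates 2 and 3 (0.0647 to 0.183). In the Wnt list, 3 of 12 were called higher and 2 lower, a called share of 41.7% against a background of 33.8%. The 3 called higher were DKK1, NKD1, which binds Dishevelled (0.79 ± 0.12), and KREMEN2, a receptor of DKK proteins (0.29 ± 0.09). The call of KREMEN2 was lost without replicate 2 or 3 of either group (limma adjusted p = 0.0535 to 0.0758). Members not called included SFRP1, SOST and KREMEN1. RSPO3, which enhances Wnt signals (-0.41 ± 0.10), and CTNNB1, beta-catenin itself (-0.23 ± 0.06, but -0.15 and not called under cyclic loess), were lower. In the TGF-beta and BMP list 3 of 11 were higher and 2 lower. TGFBI, an extracellular matrix protein induced by TGF-beta, read 8.10, 8.52 and 8.40 against 9.23, 9.26 and 9.52 (1.00 ± 0.09), and BMP6, a ligand, rose by 0.92 ± 0.10. TGFB2 (-0.42 ± 0.08) and ID1, a BMP target (-0.30 ± 0.08), were lower, ID1 not without siRNA replicate 2 (-0.25, limma adjusted p = 0.0518).

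Most measured genes of laminins, which help to build the basement membrane, and of integrins, a family of adhesion receptors with various ligands, were higher. Of 12 measured, 10 were called higher (8 to 10 under the 14 alternatives), with a median of 0.35, against 17.4% called higher among genes with a symbol. The integrin chain ITGA1, of a collagen receptor, read 5.80, 5.85 and 6.13 on control arrays against 6.70, 6.64 and 6.67 on siRNA arrays (0.75 ± 0.10), and ITGAX (0.66 ± 0.13) and ITGA11 (0.55 ± 0.08) rose as well. LAMB1, of the widespread laminins, read 9.75, 9.85 and 9.86 against 10.32, 10.32 and 10.26 (0.48 ± 0.05). The other 2 were not called. Of the wider matrix list, which holds the laminins too, 9 of 23 were called higher and 1 lower, with COL6A3, a microfibril collagen (0.48 ± 0.06), next to the laminins, and EXT1, a heparan sulfate polymerase, lower (-0.30 ± 0.06). Fibronectin, FN1 (-0.06, and 0.01 under cyclic loess), and the collagen COL3A1 (-0.10) were not called.

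In the list of ATF4 targets and the unfolded protein response, 5 of 12 were called higher (9 under cyclic loess) and the others were not called. ASNS, asparagine synthetase, read 8.04, 8.15 and 8.00 on control and 9.02, 9.03 and 9.14 on siRNA arrays (1.00 ± 0.07, limma adjusted p = 1.85e-09). SLC7A11, the cystine transporter, read 9.73, 9.69 and 9.67 against 10.48, 10.47 and 10.36 (0.74 ± 0.06). CEBPB, a transcription factor of the stress response, rose by 0.56 ± 0.09, DNAJB9, a co-chaperone of the endoplasmic reticulum, by 0.53 ± 0.09, and PHGDH, of serine synthesis, by 0.38. Of 8 tRNA synthetases, MARS was higher (0.27 ± 0.06) and 3 were lower, led by IARS2 (-0.35 ± 0.07) and EPRS (-0.33 ± 0.06).

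Mitochondrial energy genes were lower in 6 of 12 and higher in 1 (3 lower under cyclic loess and 7 with arrays centred on their medians). UQCRC2, a core protein of respiratory complex III, read 10.66, 10.75 and 10.65 against 10.13, 9.99 and 10.13 (-0.60 ± 0.05, limma adjusted p = 3.71e-08), while UQCRC1, its partner, was higher (0.23 ± 0.05). SDHA, of complex II (-0.34 ± 0.06), and DLAT, of pyruvate dehydrogenase (-0.24 ± 0.05), were lower. Of 7 proteasome genes 3 were lower, led by PSMD7 (-0.25 ± 0.06) and PSMA4 (-0.23 ± 0.06), and under cyclic loess all 3 calls were lost (-0.18 and -0.16 for these 2). Lysosomal genes (3 higher and 2 lower of 15) had a called share of 33.3%, near the background of 33.8%, and between 2 and 6 calls under the alternatives, 2 without siRNA replicate 3, with GRN, progranulin, the largest rise (0.43 ± 0.07). RAB GTPases of vesicle traffic (2 higher and 3 lower of 19) were called in 26.3%, and RAB8A (-0.62 ± 0.06) and RAB2 (-0.54 ± 0.06) were their largest falls. Cholesterol synthesis gave 1 call of 10, a rise, but 5 under cyclic loess. The hypoxia list gave 1 call of 5, P4HA2, a collagen hydroxylase (0.38 ± 0.07), but 3 with arrays centred on their medians. No call was made by limma among 3 glycolysis genes and 2 ribosomal protein genes, where LDHA, of lactate production (-0.13, unadjusted p = 0.0139), and RPLP2, of the large ribosomal subunit (0.14, unadjusted p = 0.0321), were the 2 genes with an unadjusted p under 0.05, and each was called under 3 of the alternatives.

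Chromatin regulators were lower in 6 of 10 and higher in 1. BMI1, of a Polycomb complex, read 10.75, 10.61 and 10.92 on control and 10.15, 10.30 and 10.18 on siRNA arrays (-0.55 ± 0.08, limma adjusted p = 2.94e-05). KAT5, a histone acetyltransferase (-0.47 ± 0.06), and the deacetylases HDAC9 (-0.40 ± 0.08), HDAC7 (-0.35 ± 0.06) and HDAC1 (-0.31) followed. JARID1B, a demethylase of histone H3, was higher (0.36 ± 0.07). In a list of 15 methylation enzymes that shares it, 5 were higher and 2 lower (8 and 2 under cyclic loess), JMJD2B (0.37 ± 0.08) and SETD7 (0.34 ± 0.06) among the rises and MLL5 (-0.36 ± 0.07) and EZH1 (-0.31 ± 0.06) the falls.

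Markers of the cell type gave a mixed picture. Of the osteoblast markers, RUNX2 (7.74 to 7.86 on control arrays) and MSX2 (7.22 to 7.53) were well within the range of expressed genes and were higher with CASP8AP2 siRNA (0.46 ± 0.12 and 0.61 ± 0.13), whereas the bone matrix genes COL1A2 (control mean 4.46, difference -0.22, limma adjusted p = 0.0567) and IBSP (3.75, difference -0.09) were not called. COL1A2 was called lower in 6 of the alternatives, all 3 scalings among them. Both lay in the lower part of the range, in which the first quartile of all genes was 3.79 and the median 5.62. The 2 measured retinal pigment epithelium markers, RLBP1 (4.03) and BEST1 (4.20), were also low and not called. On the day 2 control arrays, RUNX2 had a mean of 7.79 in U2OS and 9.61 in hTERT-RPE1 cells, and MSX2 had 7.40 and 5.35. RUNX2 was therefore not higher in the osteosarcoma line. Of 5 markers of other cell types, the endothelial VWF (3.71, 3.80 and 3.81 against 4.57, 4.52 and 4.36) and CDH5 rose by 0.71 ± 0.07 and 0.35 ± 0.09 at low levels, CDH5 not without control replicate 1 (limma adjusted p = 0.0502) or siRNA replicate 2 (0.0501). The other 3, of blood cells, had control means of 3.20 to 4.75 and were not called.

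**Figure D4:**
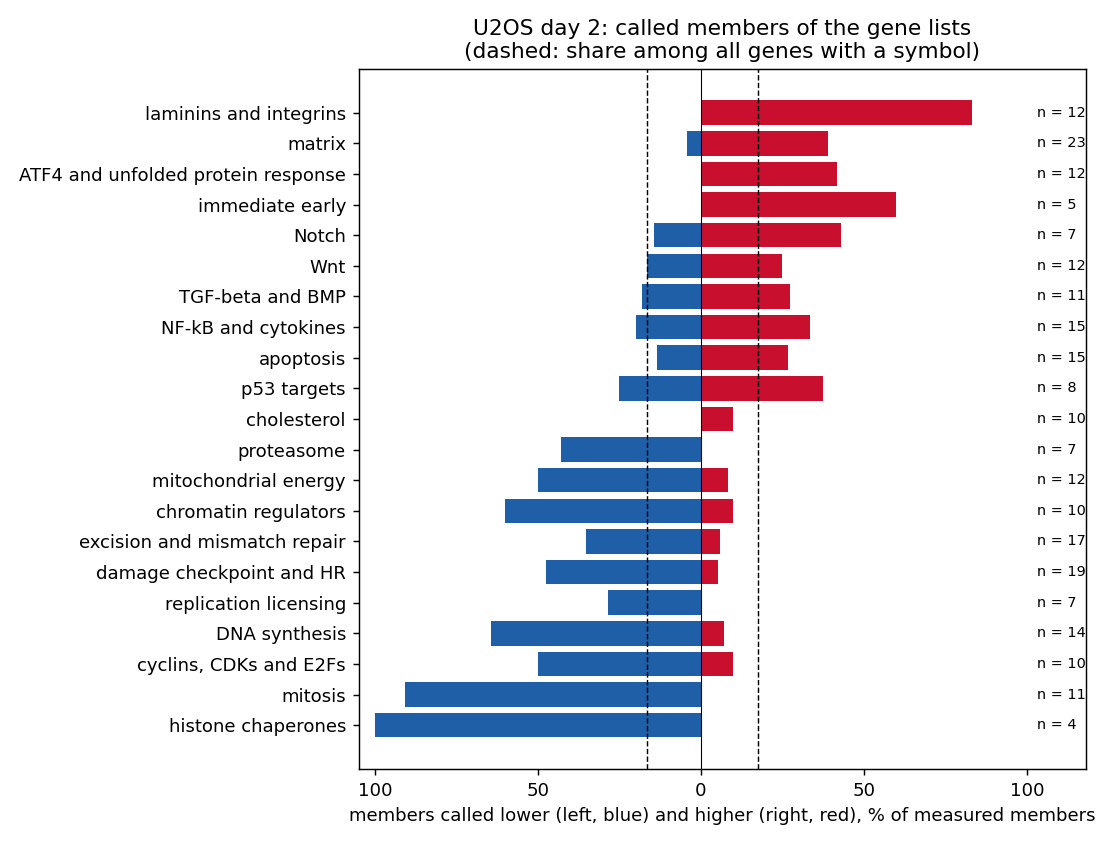
For each gene list the red bar gives the share of measured members called higher and the blue bar the share called lower, in % of the number of members at the right (n), and dashed lines give the shares among all 1924 genes with a symbol (17.4% higher, 16.4% lower). Of the lists drawn, histone chaperones and mitosis reach the furthest to the left (4 of 4 and 10 of 11 members) and laminins and integrins the furthest to the right (10 of 12).

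The response on day 2 was then set against that of U2OS cells on day 1. On day 1, 1295 genes were called (5.87%). Of them, 1064 were called on day 2 as well, which is 82.2% of the day 1 genes and 19.4% of the day 2 genes, and 1050 moved in the same direction. Over all genes, 24.9% were called on day 2. Both comparisons use 1 estimate of spread per gene, and its part in the overlap was not tested. CASP8AP2 itself differed by -1.30 ± 0.09 on day 1, and its further fall to day 2 did not pass the test (difference between days -0.43, limma adjusted p = 0.0544). The difference between the days was called for 1554 genes (7.04%). CCNA1 was at -0.01 on day 1 and 2.13 on day 2 (difference 2.14, limma adjusted p = 6.56e-07), and ANGPT2 at 0.07 and 2.12 (difference 2.05). DKK1 was called on both days (0.62 and 2.34, difference 1.72), TGFA (0.26 and 1.69) and ZNF280A (0.24 and 1.60) on day 2 only, with differences of 1.43 and 1.36 that passed the test. The largest named differences downward were those of GLDC, of the glycine cleavage system, which was higher on day 1 (0.78) and not called on day 2 (-0.47, difference -1.25, limma adjusted p = 0.0152), OSGEPL1 (difference -0.89), TNNT2 (-0.89) and DHODH (-0.82). By contrast TOMM22 (-0.87 on day 1), NRG3 (-0.80), MRPS28 (-0.95) and CSF1 (-0.72) were called lower on day 1 already, and for these 4 the difference between the days was not called. On day 1, 8 of the 11 mitosis genes were called lower (3.9% of genes with a symbol were), whereas the 4 histone chaperones lay between -0.21 and -0.04 and were not called. The difference between the days was called for CHAF1B (-0.27, limma adjusted p = 0.021) and RBBP7 (-0.23, 0.0485). It was not called for ANP32E (-0.33, limma adjusted p = 0.0502) or RBBP4 (-0.15, 0.540). On day 3, in 2 arrays per group whose scale differs from the rest, DKK1 was at 2.21, CCNA1 at 3.02, ANGPT2 at 1.54 and CASP8AP2 at -1.18.

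In hTERT-RPE1 cells on day 2, CASP8AP2 fell by 0.76 on the log2 scale (SE 0.09), less than in U2OS cells (difference -0.97, limma adjusted p = 4.56e-05), so the lines differ in the depth of the knockdown as well as in identity, and the part of each in the differences cannot be told apart. There 1413 genes were called (6.4%), and 953 of these were called in U2OS cells too, 67.4% of the hTERT-RPE1 genes and 17.4% of the U2OS genes. Of the 953, 914 moved in the same direction. Over all genes, 24.9% were called in U2OS cells on day 2, and the spread per gene was again shared. The difference between the lines was called for 2073 genes (9.39%). DKK1 (0.10 in hTERT-RPE1, difference 2.24), ANGPT2 (0.03, difference 2.09), IL13RA2 (-0.04, difference 1.83) and ZNF280A (0.00, difference 1.59) rose in U2OS cells and were not called in hTERT-RPE1 cells. DHRS3, an enzyme that reduces retinal, was higher in U2OS cells (0.84) and lower in hTERT-RPE1 cells (-0.73, difference 1.56, limma adjusted p = 1.11e-05). The amino acid genes ASNS (-0.16 in hTERT-RPE1, difference 1.16) and SLC7A11 (-0.23, difference 0.97) also differed between the lines. CCNA1 (2.18 in hTERT-RPE1), PGF (1.47) and KCNJ15 (1.34) rose in both, and for these 3 the difference between lines was not called. In the other direction, H1F0 rose by 2.46 ± 0.10 in hTERT-RPE1 cells and not in U2OS cells (difference -2.54, limma adjusted p = 2.58e-10), as did MCAM, an adhesion molecule (1.56, difference -1.45), and SPINT1, a protease inhibitor (1.20, difference -1.06). PCDHB5 (0.22, difference -1.50) fell in U2OS cells and was not called in hTERT-RPE1 cells. Control levels differed between the lines for several of these genes. H1F0 stood at 6.74 on hTERT-RPE1 and 12.07 on U2OS control arrays (means), MCAM at 5.33 and 10.19, DKK1 at 10.33 and 5.39, and DHRS3 at 9.83 and 5.11, and the part of the starting level in the differences was not tested.

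**Figure D5:**
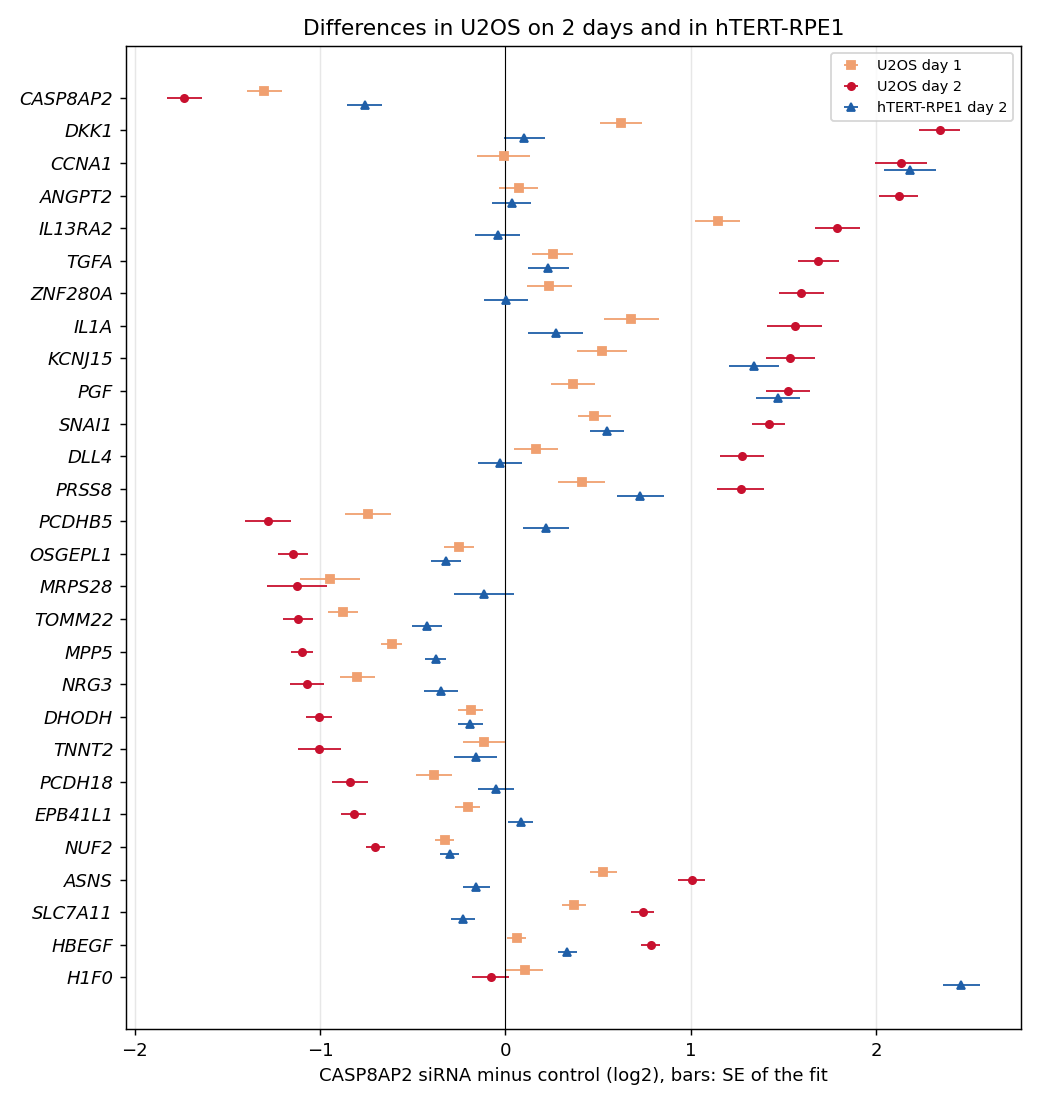
CASP8AP2 siRNA minus control on the log2 scale (horizontal axis) for named genes in U2OS cells on day 1 (squares) and day 2 (circles) and in hTERT-RPE1 cells on day 2 (triangles), with bars for the standard error of the fit. CCNA1, PGF and KCNJ15 show circles and triangles side by side, DKK1 and ANGPT2 show circles alone near 2, and H1F0 shows a triangle alone at 2.46.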

How the data were processed

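RNA of U2OS and hTERT-RPE1 cells was hybridised to 40 Affymetrix Human WT 1.1 arrays. The authors grouped probes by Ensembl gene and deposited log2 values made by RMA (named in the submitters' processing notes), 1 per gene and array, background corrected and scaled between arrays. Versions, genome build and the release of the probe groups are not given in the sources used here. RMA compresses differences of dim genes, and after scaling each value stands relative to the other genes. The day 3 arrays differ in scale from the rest and were treated as normalized separately, so day 3 entered no main test and joined the other days only in the alternative fit of all 40 arrays.

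With limma 3.58.1 in R 4.3.3, a mean per group of line, siRNA and day (from the labels) was fitted to the 24 arrays of days 1 and 2 (lmFit, eBayes), with the Benjamini-Hochberg adjustment over all 22069 genes. Differences between days and lines were contrasts of the same fit. The number of arrays limits the precision, and no detection call was used, so a low value may be background. The code was tested on simulated data.

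Symbols came from the study's own lists of siRNA targets. Of 1924, 1774 are current in RefSeq, 124 are older symbols matched there and 26 were not found. Counts over canonical histones, which had been planned, are not reported because none had a symbol here. Genes named are CASP8AP2, NPAT, HINFP and H1F0, the 12 largest changes each way (called, with a symbol and with no overlap of the groups), up to 4 called members each way of each list, up to 2 bright members of lists with under 3 calls, and the 5 largest called differences each way between days and lines. Other genes, such as list members that were not called, were chosen after their values were seen. The members and lists were chosen with earlier results of these data known, and some lists were added after the symbols were known. Alternatives were fits of only the arrays compared or of all 40 arrays, centring on the median, cyclic loess, quantile normalization, a filter at a mean of 5, eBayes with trend and robust, the replicate number as a block, and leaving out each array. Residuals of same-numbered control and siRNA arrays correlated with r of 0.058, 0.014 and -0.009, so the numbers were not taken as pairs. Some genes that the rule would name are not reported here, in text or figures. Promoters are from RefSeq (GRCh38.p14).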

Additional observations from a re-analysis of the deposited data

Results flagged for a closer look

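These genes had a CASP8AP2 siRNA effect that differed between the lines or between the days by the contrast of the effects in limma. Between the lines on day 2, the U2OS effect minus the hTERT-RPE1 effect was -2.54 for H1F0 (limma adjusted p = 2.58e-10), -1.50 for PCDHB5, -1.45 for MCAM and -1.06 for SPINT1. It was 2.24 for DKK1 (limma adjusted p = 9.69e-09), 2.09 for ANGPT2, 1.83 for IL13RA2, 1.59 for ZNF280A and 1.56 for DHRS3. The targeted gene CASP8AP2 itself differed by -0.97 between the lines (limma adjusted p = 4.56e-05), so a deeper fall of its transcript goes with each of these values in U2OS cells, and its part in them was not tested.

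Between the days in U2OS cells, the day 2 effect minus the day 1 effect was -1.25 for GLDC (limma adjusted p = 0.0152), -0.89 for OSGEPL1, -0.89 for TNNT2 and -0.82 for DHODH. It was 2.14 for CCNA1 (limma adjusted p = 6.56e-07), 2.05 for ANGPT2, 1.72 for DKK1, 1.43 for TGFA and 1.36 for ZNF280A. ANGPT2, DKK1 and ZNF280A thus stand in both sets. Groups of 3 arrays are too small for the test of single outlying samples, and none was made.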

How the results depend on the processing

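The count of called genes, 5492, lay between 4902 with the replicate block and 5738 with arrays centred on their medians, and between 4658 and 4808 without any 1 of the 6 arrays. Of the 4902 genes called with the replicate block, 4740 were among the 5492. With the block the calls of BAX, PERP and IL18 were lost and COL1A2 was called, and not every array correlated best with that of its own number. The share of calls that were higher moved most with scaling, from 47.3% to 60.6% under cyclic loess and 38.6% with arrays centred on their medians. Calls of at least 1 on the log2 scale numbered 313, and 302 to 326 without any 1 array. The difference between the days was called for 996 genes with the replicate block in place of 1554 (954 shared) and for 1175 to 1357 without any 1 array. The difference between the lines was called for 1521 with the block in place of 2073 and for 1698 to 2072 without any 1 array. The fall of CASP8AP2 lay between -1.77 and -1.71 without any 1 array, and its exact permutation test (difference -1.73, p = 0.1) cannot pass 0.05 with 3 against 3 arrays. Of 171 named results, 149 kept their call and direction under every alternative that could be run for them, and 23 of the 171 lie below the filter at a mean of 5 and were not run under it. The calls that did not are given beside the genes, and FN1, which was not called, changed sign under cyclic loess (0.012). Why settings differ was not tested. The counts over canonical histones were not run for want of symbols.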
